A study of Mus musculus with 3 samples.

Results

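The amino acid transporters of the SLC1, SLC3, SLC6, SLC7, SLC36, SLC38 and SLC43 families were described in 4T1, a mouse breast cancer cell line, after it had been made to over-express WISP2, a matricellular protein that cells secrete. Members were all gene symbols made of one of these family names and a number; 59 of the 34591 symbols in the table matched. A further 3 symbols begin with one of these family names but end in letters, and fell outside that rule. They were Slc6a20a, Slc6a20b and Slc7a6os, of which Slc7a6os denotes a separate gene on the strand opposite Slc7a6. There was 1 group of 3 messenger RNA libraries, all with the genotype WISP2 OE, called C1, C2 and C3 after suffixes that carry no order. The design text sets these cells against cells with an empty vector, which were not analysed here, so the values are a state of the over-expressing cells and no effect of WISP2 was estimated. Per the labels' protocols, tumour cells received packaged vector and were selected with puromycin; the construct described there is one of Wisp1, and whether the cells were a clone or a pool, and whether the libraries came from separate cultures, is not given in the sources used here. Spread is therefore that between these samples, and it may be technical.

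Amino acids cross the plasma membrane through carriers that differ in substrate and in driving force. Sodium-coupled carriers of SLC1, SLC6 and SLC38 concentrate amino acids in the cell, and exchangers of SLC7 then trade one amino acid for another. Many SLC7 members are light chains that reach the membrane only when bound by a disulfide bridge to an SLC3 heavy chain. Leucine, arginine and glutamine brought in this way feed protein synthesis and mTORC1, cystine feeds glutathione, and the transcription factor ATF4 raises several of these carriers when amino acids run short.

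The libraries held between 17630755 (C1) and 67028365 (C2) gene-assigned counts. All 5 mammary epithelial markers examined (Krt8, Krt18, Cdh1, Epcam and Krt7) reached 1 CPM in each library (CPM is a gene's count scaled to its library's total), with summed levels of 3430, 3461 and 3736 CPM in C1, C2 and C3. Of 8 leukocyte markers with a row 2 did so (Cd68 and Lyz2), Cd3e was at 0, and their sum was 19.0, 9.62 and 9.90 CPM in the same libraries. None of 5 fibroblast and 4 endothelial markers did, with Lum and Thy1 at 0 and sums of at most 0.0597 and 0.284 CPM. Wisp2 itself stood at 429, 384 and 454 CPM in the same order.

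The transporters were concentrated in a few genes. Of the 59 members 20 reached 1 CPM in every library (33.9%, against 33.8% of all genes in the table), 16 had counts but stayed below that level, and 23 had no count. A count of 0 allows a level of up to 0.170, 0.0448 and 0.0631 CPM in C1, C2 and C3, at 3 counts per library; these limits, and the intervals given further on, cover counting error only. The members together took 0.221%, 0.235% and 0.214% of the counts of these libraries. The 20 members at 1 CPM had a median of 9.62 CPM per kilobase of exon, beside 8.49 for the 10561 genes at that level with a known length.

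Levels of different genes were compared only after division by length, for which the merged exons of each gene were used. On that scale SLC7 held 38.9% of the summed member level, SLC38 20.4%, SLC3 16.6%, SLC1 12.4%, SLC6 10.4%, SLC36 1.11% and SLC43 0.212%. The 5 leading genes, Slc7a5, Slc3a2, Slc38a2, Slc1a5 and Slc6a6, made up 67.9%. These shares lean on the length chosen, and with the length of the longest principal coding transcript Slc3a2 stood first and Slc7a5 second, while Slc38a2, Slc1a5 and Slc6a6 followed in unchanged order.

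**Figure D1:**
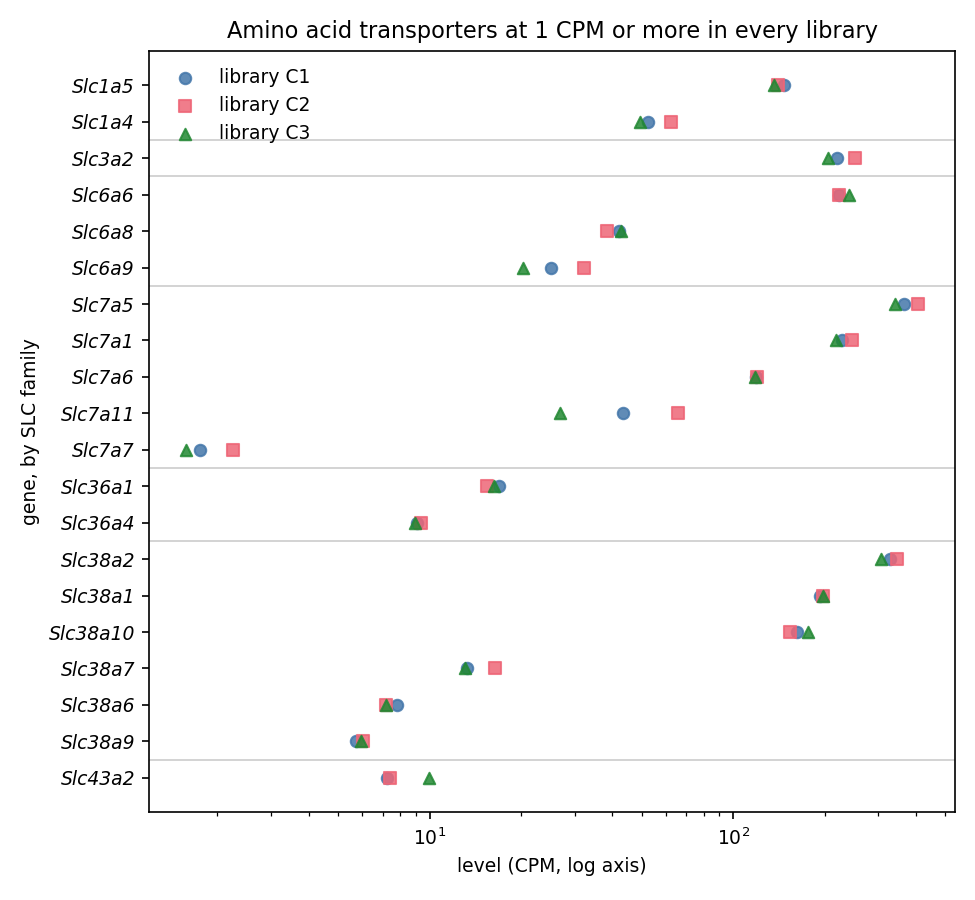
Level of the 20 members at 1 CPM or more in each of the 3 libraries, in CPM on a log axis, with genes on the vertical axis grouped by SLC family and 1 symbol per library. The libraries lie close together for most genes, and Slc7a11 spans 26.8 to 65.6 CPM.

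The heavy chain Slc3a2 (4F2hc or CD98) carries the light chains of the exchangers to the cell surface. It stood at 219, 252 and 204 CPM in C1, C2 and C3. C2 was the highest library and C3 the lowest. The other heavy chain, Slc3a1, which serves the cystine and dibasic amino acid exchanger of kidney and gut, had 4, 16 and 11 counts. Slc3a2 exceeded it by 9.19 ± 0.15 on the log2 scale per unit length (SD, n = 3), a 583-fold ratio, and in 3 of 3 libraries. Slc7a9 and Slc7a13, light chains that pair with Slc3a1, had no count.

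Among the 6 light chains of Slc3a2, Slc7a5 and Slc7a6 made up nearly all of the level. Slc7a5 (LAT1), which brings in leucine and other large neutral amino acids in exchange for glutamine, stood at 365, 406 and 341 CPM in C1, C2 and C3. It held 77.0% ± 0.6 of the light-chain level per length (73.8% ± 0.5 with principal transcripts). Slc7a6, which exports cationic amino acids in exchange for neutral ones, stood at 119, 119 and 118 CPM in C1, C2 and C3, a coefficient of variation of 0.627%, and held 20.1% ± 1.5. The symbol Slc7a6os denotes a gene on the opposite strand, at 34.0 ± 0.3 CPM; without the strand setting of the counting, reads of these neighbours cannot be told apart where they overlap.

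The remaining light chains were far lower. Slc7a11 (xCT), the cystine and glutamate antiporter, held 2.46% ± 0.87 of the light-chain level per length. Slc7a7, the close relative of Slc7a6, stood at 1.76, 2.25 and 1.58 CPM in C1, C2 and C3 and held 0.430% ± 0.045. Slc7a8 (LAT2), the other LAT-type light chain, had 8 counts summed over libraries against 49900 for Slc7a5, a ratio per length of 8419 (95% counting interval 4273 to 19502). Slc7a10 (Asc-1), a carrier of small neutral amino acids, had none.

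Whether the heavy chain was above or below Slc7a5 could not be settled, and how far it lay below the 6 light chains summed depended on the length used. Per merged exon length, Slc3a2 lay below Slc7a5 by 0.65 ± 0.03 on the log2 scale (0.637-fold) and below the 6 light chains summed by 1.03 ± 0.04 (0.490-fold). With principal transcript lengths the first difference changed sign, to 0.23 in favour of Slc3a2, and the second shrank to -0.21. Within the libraries the ratio of Slc3a2 to Slc7a5 was steady whichever length was used, at 0.630-, 0.651- and 0.630-fold in C1, C2 and C3 per merged exon length. Both genes were highest in C2 and lowest in C3.

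**Figure D2:**
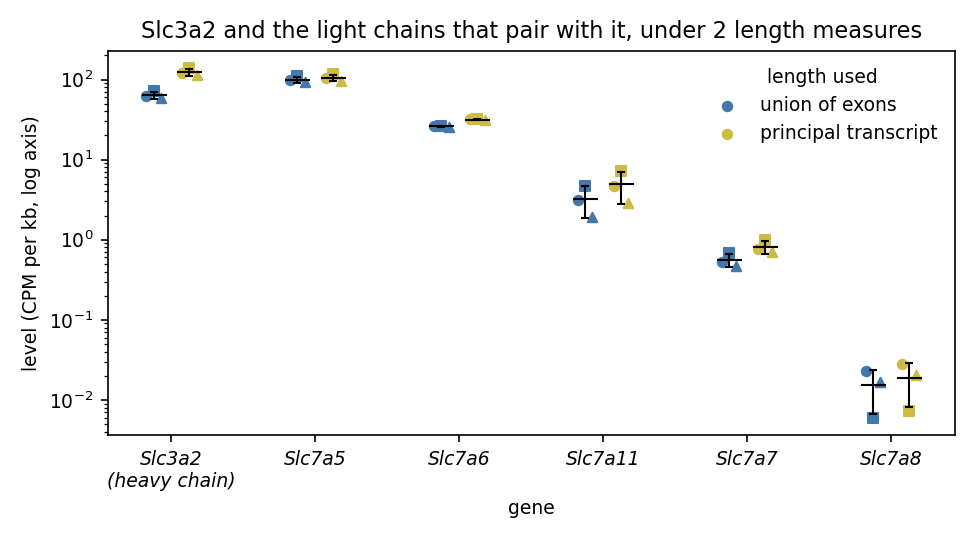
Level of the heavy chain Slc3a2 and of its light chains in CPM per kilobase on a log axis, by gene, under both length measures (colours), with 1 symbol per library (circle C1, square C2, triangle C3) and the mean ± SD of 3 libraries as black bars. Slc3a2 lies below Slc7a5 with merged exons (63.8 against 100.03 CPM per kilobase) and above it with principal transcripts (124 against 105 CPM per kilobase).

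Of the members at 1 CPM, Slc7a11 differed most between libraries. It stood at 43.4, 65.6 and 26.8 CPM in C1, C2 and C3, with exact 95% intervals of 40.4 to 46.6, 63.7 to 67.6 and 25.3 to 28.3. The 3 intervals do not overlap, which also held for Slc6a9, Slc3a2, Slc7a5 and Slc38a2. Such intervals narrow as counts rise, and the share of all genes whose intervals do not overlap was not counted. For Slc7a11, C2 was 2.45-fold above C3. In bulk RNA a smaller share of expressing cells and less RNA per cell cannot be told apart. Spread was tested for 13026 genes by setting the quasi-likelihood dispersion of each gene against that of genes of similar level (edgeR F test, Benjamini-Hochberg adjustment at 0.05), and 9 genes passed (0.0691% of those tested). Of the 23 members that passed the filter on low counts Slc7a11 was the only one called (adjusted p = 0.00703). Without C3 its adjusted p was 0.0607, and a robust prior gave 0.996, so the call rests on C3 and on the form of the prior.

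The start of Slc7a11 is shown because its letters hold a known element of amino acid control. The C/EBP-ATF response element, at which ATF4 binds with C/EBP partners, was searched as the letters TGATGNAA on either strand (TTNCATCA on the other), and no other motif was searched. Windows ran from 250 bases before to 50 after annotated starts (RefSeq, GRCm38.p6). The Slc7a11 window holds it in both directions, beginning 66 and 47 bases before the start. The stretches below are written 5′ to 3′ along the gene, with each match in capitals.
Slc7a11, chr3:50443614-50443733, minus strand, the 120 bases before the start: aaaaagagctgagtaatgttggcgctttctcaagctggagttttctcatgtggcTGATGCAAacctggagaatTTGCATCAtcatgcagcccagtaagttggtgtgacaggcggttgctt
Slc1a4, chr11:20332699-20332728, minus strand: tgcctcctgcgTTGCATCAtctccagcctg
Slc7a7, chr14:54417930-54417959, minus strand: tgggacctagaagcTGATGCAAcagcttcc
Asns, chr6:7693214-7693243, minus strand: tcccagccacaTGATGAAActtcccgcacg
Chac1, chr2:119351038-119351067, plus strand: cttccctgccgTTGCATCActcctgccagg

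Asns, the asparagine synthetase gene, and Chac1, which breaks down glutathione, are shown for comparison as ATF4 targets that are not transporters. Of the 20 members at 1 CPM 15 had a promoter entry, and 3 of these held the letters: Slc7a11, Slc1a4 and Slc7a7. Of 22 listed ATF4 target genes with an entry 8 held them (36.4%), and of all 27025 genes with an entry 4.51% did. A window with at least 2 matches was found for Slc7a11 and Slc7a7 and for 0.0851% of all genes. Members at 1 CPM without an entry were Slc1a5, Slc38a1, Slc6a6, Slc6a8 and Slc7a5. A match describes letters and is not evidence of binding.

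The cationic amino acid carriers were represented by 1 gene. Slc7a1 (CAT1), the common importer of arginine and lysine, stood at 227, 247 and 218 CPM in C1, C2 and C3. Slc7a2 (CAT2), the inducible form, had 1 count in each library, so that Slc7a1 was 8169-fold higher per length (95% counting interval 2795 to 39617). Slc7a3 (CAT3) with 60 summed counts, Slc7a4 with 88 and Slc7a14 with 29 were below 1 CPM. The SLC7 members Slc7a12 and Slc7a15, not grouped with these carriers here, had no count.

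Of SLC1, the neutral amino acid exchangers were present and the glutamate carriers were not. Slc1a5 (ASCT2), the main glutamine exchanger of many tumour cells, stood at 147, 140.4 and 136 CPM in C1, C2 and C3. Slc1a4 (ASCT1), which carries serine, alanine and cysteine, stood at 52.4, 62.5 and 49.5 CPM in C1, C2 and C3. Slc1a4 was highest in C2 and lowest in C3, whereas Slc1a5 was highest in C1. Slc1a5 exceeded Slc1a4 by 1.29 ± 0.18 on the log2 scale per length (2.44-fold). Of the glutamate carriers Slc1a2 had 1 count, and Slc1a1, Slc1a3, Slc1a6 and Slc1a7 had none.

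SLC38, the sodium-coupled neutral amino acid carriers and their relatives, had 6 of 11 members at 1 CPM. Slc38a2 (SNAT2), which imports glutamine and alanine and is induced when amino acids are scarce, stood at 328, 347 and 308 CPM in C1, C2 and C3. Slc38a1 (SNAT1), with similar substrates, stood at 193, 197 and 197 CPM in C1, C2 and C3. Slc38a2 was again highest in C2 and lowest in C3, while Slc38a1 differed between libraries by at most 1.02-fold. Per length Slc38a2 was 3.26-fold above Slc38a1 (SD 0.09 on the log2 scale), and the log2 difference was 1.38 with principal transcripts. Slc38a10 stood at 162, 154 and 176 CPM in C1, C2 and C3, the reverse order of C2 and C3.

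Carriers placed at the lysosome lay below these 3 SLC38 members, at 3.44 CPM per kilobase of merged exon or less, against 11.4 or more. Slc38a7, which exports glutamine and asparagine from lysosomes, averaged 14.3 ± 1.9 CPM, and Slc38a9, the lysosomal arginine sensor of mTORC1, averaged 5.91 ± 0.16 CPM. Slc36a1 (PAT1), a proton-coupled carrier of small amino acids found at the lysosome and the cell surface, stood at 16.9, 15.4 and 16.3 CPM in C1, C2 and C3, and its relative Slc36a4 averaged 9.14 ± 0.20 CPM. Slc38a6 averaged 7.40 ± 0.37 CPM. Slc38a3 had 10 summed counts and Slc38a4 had 1. Slc38a5, Slc38a8, Slc38a11, Slc36a2 and Slc36a3 had none.

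SLC6 was the largest family, with 17 members, and 3 reached 1 CPM. Slc6a6, the taurine carrier, stood at 223, 223 and 240.3 CPM in C1, C2 and C3. Slc6a8, the creatine carrier, stood at 42.1, 38.5 and 42.5 CPM in C1, C2 and C3. Slc6a9 (GlyT1), a glycine importer, stood at 25.1, 32.1 and 20.3 CPM in C1, C2 and C3, with exact 95% intervals of 22.8 to 27.5, 30.8 to 33.5 and 19.0 to 21.6. Slc6a6 and Slc6a8 were highest in C3, and Slc6a9 was lowest there with intervals that do not overlap. Such intervals cover counting error only, and those of Slc3a2, Slc7a5 and Slc38a2 do not overlap either. How often this occurs among all genes was not counted. The spread of Slc6a9 did not pass the edgeR F test (adjusted p = 0.215).

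The neuronal and epithelial carriers of SLC6 were near or at the floor. Slc6a15, a branched-chain amino acid carrier of neurons, had 22 summed counts, the serotonin carrier Slc6a4 had 7, and Slc6a19, the neutral amino acid carrier of gut and kidney, had 3. Slc6a5 had 2, and Slc6a3 and Slc6a7 had 1 each. The GABA and betaine carriers Slc6a11, Slc6a12 and Slc6a13, the broad-range carrier Slc6a14, the noradrenaline carrier Slc6a2, Slc6a17 and Slc6a18 had no count. In SLC43, Slc43a2 (LAT4), a facilitative carrier of branched-chain amino acids, stood at 7.26, 7.41 and 9.92 CPM in C1, C2 and C3. It was highest in C3. Slc43a3 had 1 count and Slc43a1 none.

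**Figure D3:**
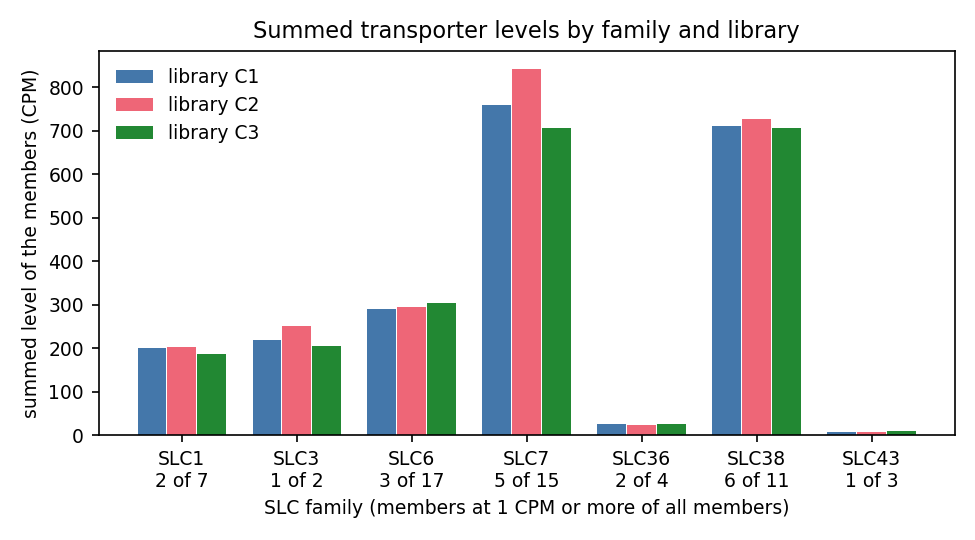
Summed level of all members of each SLC family, in CPM, by library (bars), with the number of members at 1 CPM or more of all members under each family name. SLC7 ranged from 707 CPM in C3 to 842 CPM in C2 and SLC38 from 707 to 728 CPM.

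Many of the abundant members shared an order of the libraries. Of the 23 members tested 13 varied beyond counting noise (adjusted p under 0.05 in a dispersion test against Poisson counts), a share of 56.5% against 39.3% of all genes tested. That test calls smaller differences at higher counts, and the shares were not matched for level. Of the 20 members at 1 CPM 9 exceeded 100 CPM, beside 2467 of the 11700 genes at 1 CPM. The median coefficient of variation was 5.95% for the members tested and 5.41% for all genes tested. Of the 13 members past the dispersion test, 8 were highest in C2 and lowest in C3 (61.5%), as were 28.0% of the 5118 genes past that test: Slc7a11, Slc6a9, Slc1a4, Slc38a7, Slc3a2, Slc7a5, Slc7a1 and Slc38a2. Slc6a6, Slc6a8, Slc38a10 and Slc43a2 were highest in C3, and Slc1a5 was lowest in C3 but highest in C1. Over all 23 members tested 11 had the order C2, C1, C3, beside 20.6% of all genes tested, 13 were lowest in C3, beside 36.7%, and 5 were highest in C3, beside 34.0%. Apart from Slc7a11, Slc6a9 and Slc7a7, the highest of the 3 libraries exceeded the lowest by at most 1.37-fold in the 20 members at 1 CPM. The number that varied beyond counting noise was 13, 9 and 8 when C1, C2 or C3 was left out, each time with fewer libraries and counts. Over all genes tested it was then 4908 of 13337, 1761 of 12774 and 1667 of 12970, beside 5118 of 13026 with all libraries.

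Most of the 24 listed ATF4 targets outside the transporters had this order as well. All 23 that passed the filter varied beyond counting noise, 20 of them had the order C2, C1, C3 (87.0%) and 21 were lowest in C3 (91.3%), beside 39.3%, 20.6% and 36.7% of all genes tested. Neither these shares nor those of the lists that follow were matched for level. The median coefficient of variation was 14.5% for the ATF4 targets tested, beside 5.41% for all genes tested. The list's median difference from each gene's own mean was 0.20 on the log2 scale in C2 and -0.17 in C3, beside 0.01 and -0.03 for the members tested and -0.00078 and -0.00047 for all genes tested. Atf4 itself stood at 309, 352 and 295 CPM in C1, C2 and C3. The pseudokinase gene Trib3 (38.3, 57.0 and 27.0 CPM) and the alanine aminotransferase gene Gpt2 (67.2, 87.1 and 46.8 CPM) passed the edgeR F test, each with adjusted p = 0.0267. Like that of Slc7a11, both calls were lost with a robust prior (adjusted p = 0.996 each), under which no gene was called and 588 had an unadjusted p under 0.05. In the edgeR F test without C3 the adjusted p was 0.0883 for Trib3 and 0.419 for Gpt2, and without C2 it was 0.0798 for Trib3. Per merged exon length the most abundant genes of the list were the serine synthesis enzymes Psat1 (175 ± 15.2 CPM per kilobase) and Phgdh (173 ± 9.19 CPM per kilobase) and Atf4 (135 ± 12.7 CPM per kilobase). Trib3, Asns and Chac1 were known from earlier results of these libraries to vary, so the list is not independent evidence. Depth had the order C2, C3, C1, and Wisp2 had the order C3, C1, C2. The sum of the leukocyte markers was highest in C1, as was each such marker with counts except Ptprc (0.0567, 0.119 and 0.273 CPM in C1, C2 and C3). The part of depth, Wisp2 and these markers in the order of the transporters was not tested.

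**Figure D4:**
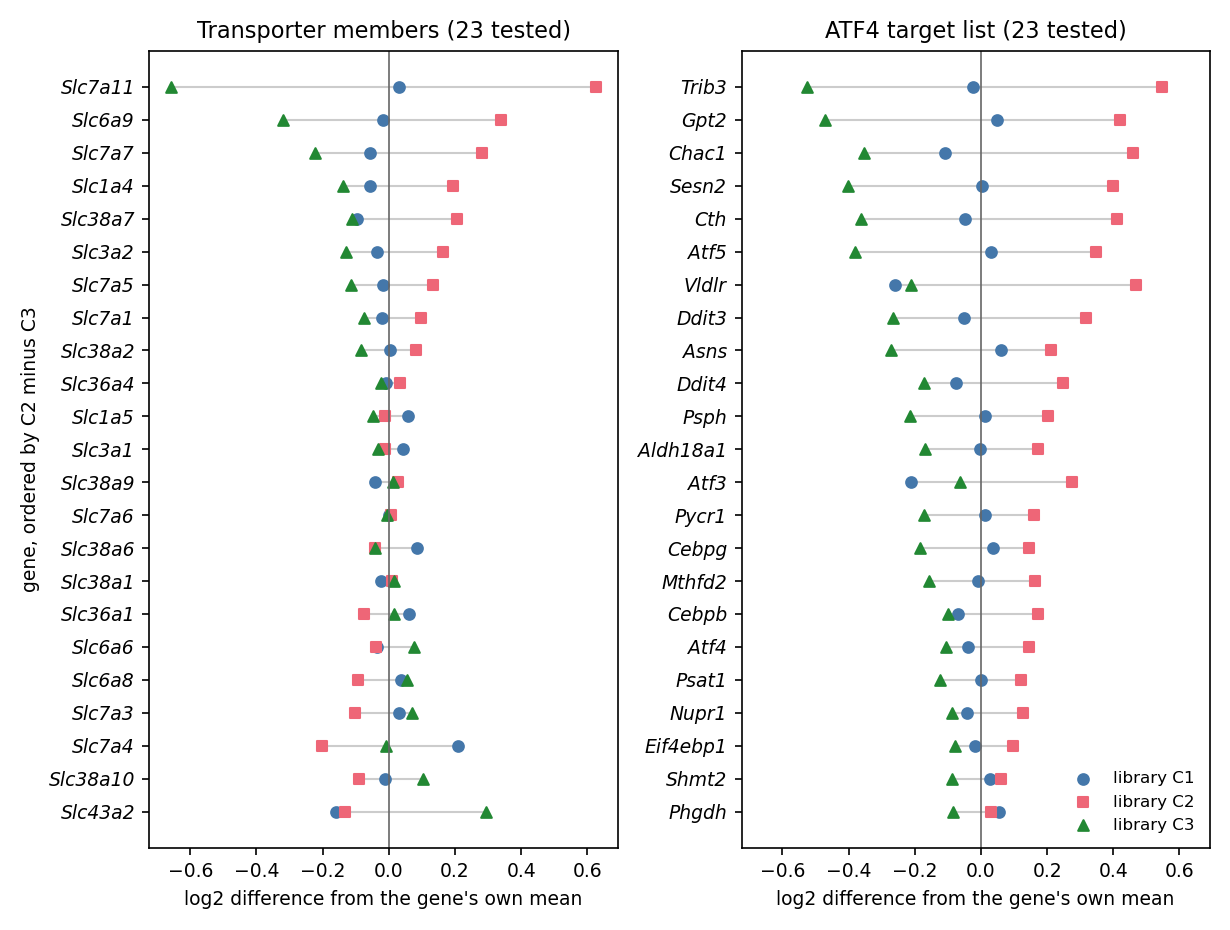
Log2 difference of each library from the gene's own mean (horizontal axis) for the 23 transporter members tested and the 23 ATF4 targets tested (vertical axes, ordered by C2 minus C3), with 1 symbol per library. Slc7a11 runs from -0.66 in C3 to 0.63 in C2, and 20 of the 23 ATF4 targets have C2 highest and C3 lowest.

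Other lists around amino acid supply were mixed. All 13 NRF2 and glutathione genes reached 1 CPM, against 33.8% of all genes in the table. Of these 9 varied beyond counting noise (69.2%, against 39.3% of all genes tested). The order C2, C1, C3 was held by 6 (46.2%, against 20.6%), and 10 were lowest in C3 (76.9%, against 36.7%). Per merged exon length the redox genes Txn1 (365 ± 7.64 CPM per kilobase), Gpx4 (111 ± 1.14 CPM per kilobase) and Gsr (63.5 ± 2.1 CPM per kilobase) were highest among them, and with principal transcript lengths Txnrd1 (101 CPM per kilobase) was above Gsr (65.4 CPM per kilobase). Of 27 genes of lysosomal amino acid sensing and mTORC1, 25 passed the filter. Of these 10 varied beyond counting noise (40.0%, near the share of all genes tested), 7 had the order C2, C1, C3 (28.0%) and 11 were lowest in C3 (44.0%). Of the 25 genes of that list at 1 CPM 20 had a known length, and the others could not be ranked per length. Among those 20, the GTPase gene Rraga was highest per merged exon length (42.9 ± 0.6 CPM per kilobase). The GATOR2 genes Seh1l (37.8 ± 1.1 CPM per kilobase) and Sec13 (34.3 ± 1.2 CPM per kilobase) came next. Rraga, Seh1l and Sec13 were also the highest of the 20 with principal transcript lengths, though in another order. No gene of either list was called in the edgeR F test, with 2 and 0 at an unadjusted p under 0.05, beside 671 of all 13026 genes tested.

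Amino acid and peptide carriers outside the rule, many of them mitochondrial, had 16 of 27 genes at 1 CPM (59.3%, against 33.8% of all genes in the table). Slc25a39, the mitochondrial glutathione carrier, stood at 70.8 ± 1.7 CPM per kilobase of merged exon, the mitochondrial serine carrier Sfxn1 at 17.0 ± 0.5 CPM per kilobase and its relative Sfxn3 at 21.5 ± 1.2 CPM per kilobase. With principal transcript lengths Sfxn1 (60.1 CPM per kilobase) was above Sfxn3 (23.3 CPM per kilobase). Of the 17 tested 9 varied beyond counting noise (52.9%, against 39.3% of all genes tested). The order C2, C1, C3 was held by 2 (11.8%, against 20.6%), and 4 were lowest in C3 (23.5%, against 36.7%). Of 16 enzymes that use imported amino acids 11 reached 1 CPM (68.8%, against 33.8%). The ornithine decarboxylase gene Odc1 (251 ± 9.96 CPM per kilobase) and the aspartate aminotransferase gene Got2 (74.3 ± 1.5 CPM per kilobase) were among the most abundant. Of the 13 tested 5 varied beyond counting noise (38.5%, near the 39.3% of all genes tested). The order C2, C1, C3 was held by 4 (30.8%, against 20.6%), and 10 were lowest in C3 (76.9%, against 36.7%). The edgeR F test called none in either list, with 1 and 0 at an unadjusted p under 0.05, beside 671 of all 13026 genes tested.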

How the data were processed

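The values are raw read counts per gene symbol in each library as deposited, with no normalization, judging by the file header and the whole numbers. CASAVA 1.7, BWA, STAR, HTSeq and the build mm9 are named, per the submitters' processing notes, with no role or order, and with annotation and strand setting not given in the sources used here. Per the labels' protocols, a stranded mRNA kit was used. Column names match no sample title, so columns were assigned to the group as a whole.

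CPM is the count over the library's total of gene counts, with 17630755 (C1), 67028365 (C2) and 47577315 (C3) counts; intervals are exact 95% binomial (Clopper-Pearson). Lengths came from GENCODE M21, on another build, and were used for lengths only; older symbols matched 6 list genes. Log2 ratios used 0.5 added counts. Ratios have no test, since 3 libraries allow no exact two-sided sign-flip p under 0.25. Spread was tested with edgeR 4.0.16 (R 4.3.3, TMM scaling, filterByExpr, intercept only, quasi-likelihood F test). A chi-square test against Poisson counts was also used (2 degrees of freedom, Benjamini-Hochberg). In counts simulated at the fitted trend, 1 library was changed 1.5-fold in 200 genes. Every gene was drawn at the trend, without scatter around it, so false calls of the F test in these data were not measured. The F test called 50.5% of the changed genes and no unchanged gene. The Poisson test called 90.5%, and also 5804 unchanged genes among 12884 tested. It therefore does not set a gene apart from ordinary spread between libraries. DESeq2 1.42.0 gave alternative size factors. Members are accounted for by name or in the counts, and the value in every library is given from a mean of 20 CPM, for leading, called and paired genes, and for some others chosen after their values were seen; of the lists, the 3 most abundant genes per length and called genes are named, except for items that are not reported here. Members, lists and tests were chosen with earlier results of these data known.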

Additional observations from a re-analysis of the deposited data

How the results depend on the processing

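The count of 20 members at 1 CPM ranged from 19 to 21 under other thresholds, scalings and left-out libraries, and the number of members with the order C2, C1, C3 was 11 under TMM and under DESeq2 scaling too, alternatives chosen after seeing the data. Members called for spread in the edgeR F test numbered 1, but 2 without the expression filter (Slc6a9 and Slc7a11), 0 with a robust prior (4 members and 588 genes at an unadjusted p under 0.05; the Poisson test called 13 members) and 0 to 2 with each library left out. Without C3 it was 0 (5 members at an unadjusted p under 0.05; the Poisson test called 8) and without C1 it was 2. Members beyond counting noise numbered 8 to 13 with each library left out, and all genes beyond it numbered 1667 to 4908, beside 5118 with all libraries. Without division by length, Slc3a2 over Slc7a5 was -0.72, Slc38a2 over Slc38a1 0.74, Slc3a2 over Slc3a1 9.82 and Slc3a2 over its light chains -1.26 on the log2 scale. With principal transcript lengths, chosen after seeing the data, Slc3a2 over Slc7a5 reversed to 0.23; Slc1a5 over Slc1a4 was 1.88, Slc38a2 over Slc38a1 1.38, Slc3a2 over Slc3a1 10.14 and Slc3a2 over its light chains -0.21. The lengths alone set these shifts. The other 50 alternatives to counts and ratios stayed within 1.5 times the count or 1 SD of the ratio. No paired analysis was possible because there is only 1 group. C1, with the fewest counts, sets the limit for members at 0.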
